A study of Mus musculus with 4 samples.

Results

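Ribosomal protein gene promoters were examined as a group in single-cell ATAC-seq of mouse long-term hematopoietic stem cells (LT-HSCs). Genes were included when their symbol was Rpl or Rps followed by a number, or Rplp0, Rplp1, Rplp2 or Rpsa, leaving out the ribosomal S6 kinases and genes typed as pseudogenes. This gave 92 protein-coding genes, and a peak counted as a promoter peak when any of it fell within 1000 bp, before or after, of a protein-coding transcript start that GENCODE gives on the mouse build GRCm38. Of these genes 83 had a promoter peak. They held 92 promoter peaks between them, out of 16788 protein-coding promoter peaks and 93513 peaks in all. The genes comprised 77 encoding proteins of the cytosolic ribosome, 8 paralogs (like-genes), 6 with a symbol of pseudogene form that the annotation types as protein-coding, and Rps19bp1, whose product binds Rps19.

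The cells came from C57BL/6JRj mice aged 22 to 28 months and were sorted by antibody as CLCA3A1high and CLCA3A1low LT-HSCs, gated as lineage-negative Sca-1+ c-Kit+ cells without CD34 and CD135. CLCA3A1 is an accessory protein of chloride channels at the cell surface, and the study used it to split old LT-HSCs. Each of the 2 samples pooled 2500 cells from each of 4 mice, so 10000 cells were sorted per sample and no replicate was available. The barcodes of the analyzed table fall into set 1 with 818 cells and set 2 with 636 cells, and no label says which set is which sample, so every value is given per barcode set and never per CLCA3A1 group.

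Set 1 held 13050952 counts and set 2 held 9820094, with a median of 13358.5 and 12755 counts per cell. No barcode was shared by the sets. Most values were even (88.7% of those above 0), since a fragment usually leaves a cut site at each end, so counts are not independent. All intervals below are 95% intervals that cover counting error only and are too narrow. Of 10 LT-HSC marker genes 9 had a promoter peak (all but Ly6a), with a summed level of 558 CPM (counts scaled to a library total of 1000000) in set 1 and 463 CPM in set 2. The summed promoter levels of the other marker lists in sets 1 and 2 were 29.7 and 39.3 CPM for T cells (Cd3e, Cd3g and Cd8a without a peak), 10.5 and 13.6 CPM for B cells (Ms4a1 without), and 41.9 and 37.2 CPM for neutrophils (S100a8 and Ly6g without). They were 25.2 and 27.2 CPM for monocytes (Ly6c2 without), 83.6 and 64.8 CPM for erythroid cells (Hbb-bt without) and 151 and 152 CPM for megakaryocytes (4 of 4 genes with a peak). The part of such cells in the values below was not tested.

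The cytosolic ribosome is built from a large and a small subunit, in which ribosomal proteins, named Rpl and Rps, surround the ribosomal RNA. Nearly all of these proteins are needed in equal amounts, the genes are scattered over the genome, and many begin transcription within a run of pyrimidines, the terminal oligopyrimidine motif through which mTOR signaling controls translation of the messages. Blood stem cells hold protein synthesis low, and loss of a single copy of some ribosomal protein genes causes Diamond-Blackfan anemia, a failure of red cell production. ATAC-seq records where the Tn5 transposase can cut, so the values describe open DNA at these promoters and neither RNA nor protein.

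Promoter sequences were available for 66 of the 92 genes in RefSeq (GRCm38.p6), 57 of them cytosolic ribosomal protein genes with 67 annotated starts. The stretches shown span 60 bases before the start and the first 20 transcribed bases, 5′ to 3′ on the strand of the gene. They were chosen because their peaks stand at the ends of the levels or of the ratios between sets described below: Rps19 and Rpl41 among the most accessible, Rps4x the least accessible of the cytosolic genes, Rpl26, Rpl35a and Rps10 with a higher CPM in set 1, Rps3 with a higher CPM in set 2, and the muscle paralog Rpl3l, whose promoter was almost without counts. Capitals mark the ETS word CCGGAAG, the word TCTCGCGA, either on both strands, and a pyrimidine word (CTTTCC or CTTTTC) that begins within 10 bases of the start.
Rps19, chr7:24884532-24884611, + strand: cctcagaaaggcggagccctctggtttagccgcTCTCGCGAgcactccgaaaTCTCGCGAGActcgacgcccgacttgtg
Rpl41, chr10:128549149-128549228, - strand: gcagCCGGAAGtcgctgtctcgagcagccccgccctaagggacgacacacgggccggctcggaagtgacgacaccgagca
Rps4x, chrX:102189372-102189451, - strand: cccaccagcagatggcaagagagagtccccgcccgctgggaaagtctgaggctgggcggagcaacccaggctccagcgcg
Rpl26, chr11:68901506-68901585, + strand: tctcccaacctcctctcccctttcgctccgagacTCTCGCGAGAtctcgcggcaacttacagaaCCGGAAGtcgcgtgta
Rpl35a, chr16:33056393-33056472, + strand: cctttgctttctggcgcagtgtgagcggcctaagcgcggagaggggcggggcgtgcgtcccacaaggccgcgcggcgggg
Rps10, chr17:27635225-27635304, - strand: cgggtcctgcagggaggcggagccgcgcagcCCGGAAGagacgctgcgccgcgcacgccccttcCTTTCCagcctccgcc
Rps3, chr7:99483690-99483769, - strand: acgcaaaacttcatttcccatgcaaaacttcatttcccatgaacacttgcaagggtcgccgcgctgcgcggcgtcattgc
Rpl3l, chr17:24727766-24727845, + strand: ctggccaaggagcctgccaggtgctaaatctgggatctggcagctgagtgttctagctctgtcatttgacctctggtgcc

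Over 300 bases (250 before the start and 50 after), the promoters of cytosolic ribosomal proteins held a median of 21 CpG pairs (quartiles 17 and 27, lowest 8), against a median of 14 over 20150 entries of protein-coding genes. For related genes the medians were 21 for mitochondrial ribosomal proteins, 23 for translation factors, 20.5 for ribosome biogenesis factors and 19 for the proteasome. The GC content was similar at 58.3% against 57.0% over protein-coding genes. The printed stretch of Rpl3l held 0 CpG pairs and that of Rps19 held 10. The ETS word was found in 25 of 67 ribosomal protein promoters (37.3%) and in 11.9% of protein-coding promoters. In the related lists it was present in 34.7% for mitochondrial ribosomal proteins, 34.3% for the proteasome, 31.2% for biogenesis factors and 29.9% for translation factors. A pyrimidine word at the start, searched on the transcribed strand, was found in 13 of 67 (19.4%) against 1.74%, with 0 to 4.17% in the related lists. Its genes were Rpl12, Rpl13a, Rpl15, Rpl18, Rpl27a, Rpl28, Rpl34, Rpl35, Rpl35a, Rpl38, Rps10, Rps12 and Rps27. RefSeq starts can be off by some bases, which this count cannot see, and the printed start of Rpl35a is the first of its 3 entries and not the one with the word.

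The word AAGATGGC of YY1 was present in 10.4% of ribosomal protein promoters against 3.11% of protein-coding promoters, and in 16% for mitochondrial ribosomal proteins, 8.96% for translation factors, 8.57% for the proteasome and 2.08% for biogenesis factors. GGGCGG, the box of SP and KLF factors, was present in 61.2% against 47.8%, with 52% to 70.1% in the related lists. The remaining words fixed for the comparison, all on both strands, differed less. The PU.1 word GAGGAAGT was present in 4.48% against 3.11%, the NRF1 word GCGCATGC in 4.48% against 3.65% and the E-box CACGTG in 11.9% against 8.03%. TATAAA was present in 8.96% against 12.1% and CCAAT, the box of NFY, in 31.3% against 37.8%. The ETS and PU.1 words share the letters GGAAG but neither contains the other. TCTCGCGA was chosen after the sequences had been seen and was present in 12 of 67 entries (17.9%) against 1.44%, with 1.33% to 10.4% in the related lists, namely in Rpl10a, Rpl12, Rpl26, Rpl27a, Rpl35, Rpl7a, Rps15a, Rps19, Rps28, Rps3a1 and Rps6. These shares describe letters in a window and not binding.

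**Figure D1:**
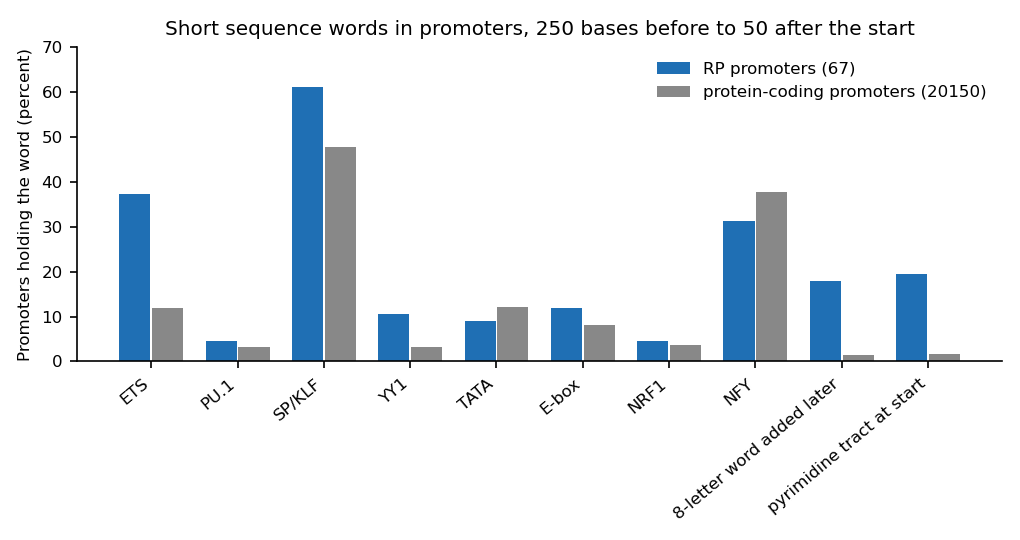
Bars give the percent of promoters (250 bases before to 50 after the start) that hold each short word, for 67 entries of cytosolic ribosomal protein genes (blue) and 20150 entries of protein-coding genes (gray). The ETS word (37.3% against 11.9%), the pyrimidine word at the start (19.4% against 1.74%) and the 8-letter word added after the sequences were seen (17.9% against 1.44%) stand furthest from the gray bars.

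All 77 cytosolic ribosomal protein genes had a promoter peak in these old LT-HSCs, 46 of the large and 31 of the small subunit. Over all protein-coding genes 70.4% had one. In the related lists the share was 100% for mitochondrial ribosomal proteins and biogenesis factors, 97.5% for the proteasome and 94.1% for translation factors. The 9 genes of the rule without a promoter peak were the 6 with a symbol of pseudogene form (Rpl10-ps3, Rpl36-ps4, Rpl36a-ps1, Rpl9-ps1, Rpl9-ps6 and Rps12-ps3) and the paralogs Rpl10l, Rpl39l and Rps27rt. Rpl10l and Rpl39l are known from the male germ line. When a gene had more than 1 promoter peak, the peak with the most counts was taken as its strongest peak.

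The strongest peaks of the cytosolic genes had a median of 43.7 CPM (quartiles 33.1 and 56.4, range 17.6 to 130) over all cells, where the median of all promoter peaks was 24.7 CPM and that of the strongest peaks of all protein-coding genes 29.7 CPM. Of the 77 peaks 73 lay above the 24.7 CPM of all promoter peaks. Above their 75th percentile (45.3 CPM) lay 37, and above their 90th (70.5 CPM) lay 10. The peaks were also wide, with a median of 1892 bp against 1517 bp for all promoter peaks and 1633 bp for strongest peaks, and CPM sums over the width of a peak. Per kb of peak the median was 21.5 CPM, against 14.2 CPM per kb over all promoter peaks and 16.3 over strongest peaks. Of the 77 peaks 71 lay above the 14.2 of all promoter peaks and 30 above their 75th percentile (23.2 CPM per kb). The centre of the peak lay a median of 129 bp downstream of the nearest start (quartiles 18.5 and 340 bp), and 61 of 77 centres were within 500 bp of it.

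The most accessible promoter peak by CPM was that of Rpl41, which encodes the smallest ribosomal protein. It had 128 CPM in set 1 (interval 122 to 134) and 133 CPM in set 2 (126 to 140.5), and 52.9% and 51.7% of cells had at least 1 count. High levels were also seen for Rps19 (110 and 112 CPM), Rpl12 (117 and 93.7 CPM) and Rpl37 (79.3 and 84.2 CPM). These peaks differed in width. The Rpl12 peak of 7421 bp also lay at the start of Lrsam1, and the Rpl41 peak of 4458 bp at that of Zc3h10. Rps19, the gene most often mutated in Diamond-Blackfan anemia, had the highest level per length, with 66.3 CPM per kb in a peak of 1672 bp that held no other gene's start. This was above 99.5% of all promoter peaks, and 47.6% and 48.7% of cells were open. Rpl37 (42.7 CPM per kb) and Rpl27 (39.3) were also high on that scale.

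Among the least accessible cytosolic genes were Rps4x (17.3 CPM in set 1 and 18.0 in set 2), Rpl24 (20.5 and 19.1), Rpl6 (23.4 and 20.7) and Rpl37a (22.3 and 24.2). Rps4x was open in 12.1% of cells of set 1 (interval 9.95 to 14.5%) and 11.8% of set 2 (9.39 to 14.6%), the lowest shares of the cytosolic genes. The largest and smallest of the 77 levels were thus 7.38-fold apart in CPM. Over all cells, the counting intervals of neighbours in this order overlapped except at 2 places, just below Rpl41 (130 CPM) and between Rpl12 and Rpl37 (107 and 81.4 CPM). Per kb the order changed: low values were those of the wide peaks of Rpl10a (8.99 CPM per kb) and Rps9 (10.8), and Rps4x had 15.5.

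**Figure D2:**
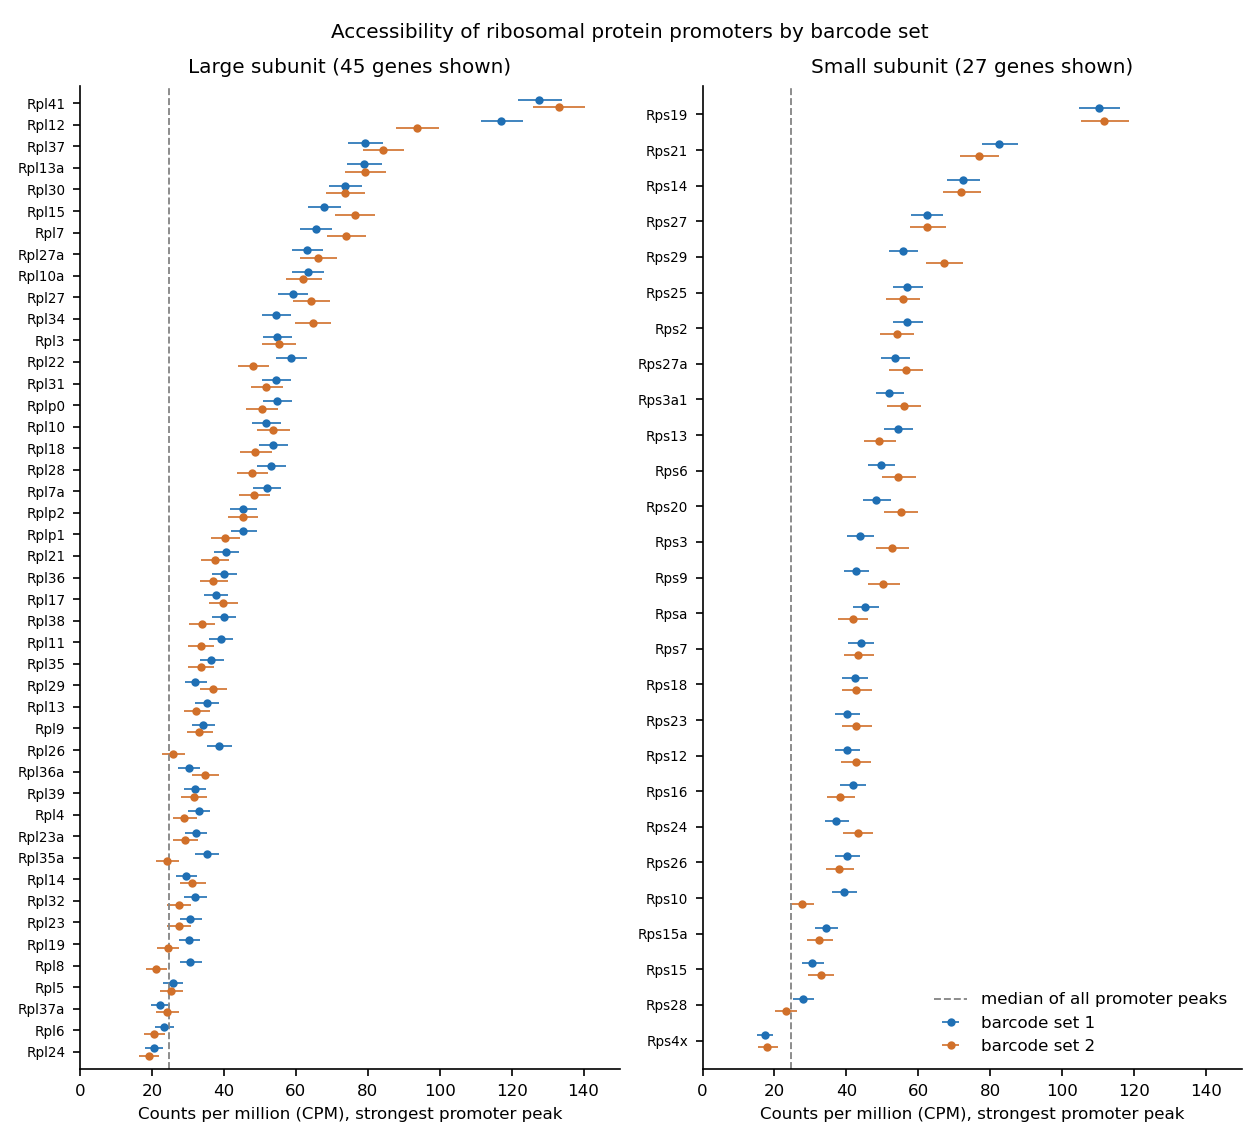
Points give the CPM of the strongest promoter peak of 72 of the 77 cytosolic ribosomal protein genes in barcode set 1 (blue) and set 2 (orange), with exact Poisson 95% intervals of the counts as lines, and the dashed line marks the median of all promoter peaks (24.7 CPM). Most pairs of intervals overlap, and levels run from 17.6 CPM (Rps4x) to 130 CPM (Rpl41) over both sets. The intervals lie apart with set 1 on the right for Rpl26, Rpl35a, Rpl8, Rps10, Rpl12 and Rpl22. They lie apart with set 2 on the right for Rps29, Rps3 and Rpl34. The intervals cover counting error only and are too narrow. The share of all promoter peaks whose intervals lie apart was not computed, so these genes are not shown to differ.

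The subunits had similar levels. The median of the large subunit was 39.0 CPM (21.1 CPM per kb) and that of the small subunit 46.0 CPM (21.8 CPM per kb), with overlapping quartiles of 31.4 to 57.9 and 39.5 to 56.0 CPM. Genes of the P stalk, which recruits translation factors to the large subunit, were alike: Rplp0 had 54.7 and 50.5 CPM in sets 1 and 2, Rplp1 45.4 and 40.4, and Rplp2 45.4 and 45.2. Rpsa, the small subunit protein also known as laminin receptor, had 45.3 and 41.8 CPM. The X chromosome carries Rpl10 (51.7 and 53.7 CPM), Rpl36a (30.2 and 34.6), Rpl39 (31.9 and 31.6) and Rps4x. Their median of 31.9 CPM was below the 43.8 CPM of the 73 autosomal genes, but the medians per kb were 22.0 and 21.5.

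A further group of cytosolic genes is known to cause Diamond-Blackfan anemia in humans when 1 copy is lost, and its promoters spanned much of the range. Beside Rps19, the values in sets 1 and 2 were 44.1 and 43.3 CPM for Rps7, 40.2 and 38.1 for Rps26, 37.2 and 43.2 for Rps24, and 39.5 and 27.6 for Rps10. Among large subunit genes, Rpl11 had 39.1 and 33.5 CPM and Rpl5 25.8 and 25.2; their proteins form a particle that inhibits Mdm2 when ribosome assembly fails. Rpl35a had 35.2 and 24.1 CPM. Rps14, whose loss on the long arm of a human chromosome causes the anemia of a myelodysplastic syndrome, had 72.5 and 72.0 CPM in a wide peak of 4666 bp, which is 15.5 CPM per kb over all cells.

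Paralogs differed from their parent genes in both directions, depending on scale. Rpl22l1 had 71.3 CPM over all cells against 54.1 for Rpl22, but 16.7 against 31.3 CPM per kb. Rpl36al, an intronless copy of the X-linked Rpl36a, had 67.4 CPM against 32.1, and 28.9 against 23.6 CPM per kb. Rps27l, a target of p53, had 47.4 CPM against 62.4 for Rps27, and 32.7 against 14.9 CPM per kb. Rpl7l1 had 37.4 CPM against 69.2 for Rpl7, and 18.8 against 22.3 CPM per kb. The peaks of Rpl36al, Rps27 and Rpl7 also lay at the starts of Mgat2, Rab13 and Rdh10, so their counts cannot be assigned to a gene. Rpl3l, which replaces Rpl3 in striated muscle, had 5 counts in set 1 and 7 in set 2 at its start (0.525 CPM over all cells), where Rpl3 had 716 and 542 counts (55.0 CPM). Rps19bp1 had 30.0 and 31.0 CPM in sets 1 and 2.

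Some promoters were shared. The strongest peak of 18 of the 77 genes also lay at the start of another protein-coding gene, such as Trappc4 beside Rps25, Ndufa7 beside Rps28 and Lias beside Rpl9. Shared peaks had a median of 55.2 CPM against 41.2 CPM for the other 59, were wider (2197 against 1851 bp), and had 21.7 against 20.7 CPM per kb. Cut sites in these peaks cannot be assigned to a gene. Of the 77 genes 30 (39.0%) hold small nucleolar RNA genes, 58 in all, within their bodies on the same strand, against 1.18% of 21951 protein-coding genes. These RNAs guide modification of ribosomal RNA. The hosts had a median of 46.5 CPM (18.5 CPM per kb) and the other 47 genes 42.5 CPM (22.7 CPM per kb).

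The barcode sets were then compared for each promoter peak with at least 20 counts, as the log2 ratio of CPM of set 1 over set 2 with 1 CPM added to each. Ribosomal protein promoters differed little between the sets. The median log2 ratio over 88 member peaks was 0.026 (quartiles -0.081 and 0.14), and the summed share of all counts was 0.414% in set 1 (interval 0.411 to 0.418%) and 0.407% in set 2 (0.403 to 0.411%), a log2 ratio of 0.025. A log2 ratio beyond 0.32 in size, the fold set as the limit for a call, was seen with a higher CPM in set 1 in 7 of 88 member peaks, where 15.3% of 16120 promoter peaks passed it, and with a higher CPM in set 2 in 2 of 88, where 12.7% passed it. Ratios scatter more where counts are low and members had high counts. Within the 5th to 95th percentile of the members' counts, a range chosen after the data were seen, 5 of 78 member peaks passed with set 1 higher, against 9.12% of 8801 promoter peaks, and 0 of 78 with set 2 higher, against 7.4%. The distance between quartiles in that range was 0.21 for members and 0.29 for promoter peaks on the log2 scale. With 1 sample per barcode set no test applies, and no group direction can be drawn.

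Of the members' 82 strongest peaks compared, 5 passed the limit with a higher CPM in set 1, where 13.8% of all genes' strongest peaks passed it. With a higher CPM in set 2 the count was 0 of 82, where 10.5% passed it. The strongest peaks of Rpl26, Rpl35a, Rpl8 and Rps10 were furthest from 0. Rpl26, a protein of the large subunit near the exit of the nascent chain, had 38.7 CPM in set 1 (interval 35.4 to 42.2) and 25.8 CPM in set 2 (22.7 to 29.1), a log2 ratio of 0.57 (0.37 to 0.81 without the added CPM). Its promoter was open in 21.8% of cells of set 1 (19 to 24.7%) and 15.7% of set 2 (13.0 to 18.8%). Rpl35a, whose peak also lay at the start of Iqcg, had a log2 ratio of 0.53 (0.32 to 0.78), with 22.0% and 15.6% of cells open. Rpl8, a core protein of the large subunit, had 30.6 and 21.1 CPM, a log2 ratio of 0.52 (0.29 to 0.79), with 19.3% and 13.8% of cells open. With a peak counted at most once in a cell, these 3 log2 ratios were 0.39 for Rpl26, 0.42 for Rpl35a and 0.40 for Rpl8, and with every cell thinned to 4899 counts they were 0.65, 0.69 and 0.22.

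Rps10 had peaks that went opposite ways. Its strongest peak (chr17:27634071-27635957), which holds the printed stretch and also the start of the readthrough gene RPS10-NUDT3, had 39.5 CPM in set 1 and 27.6 CPM in set 2, a log2 ratio of 0.50 (0.30 to 0.73). A peak of 766 bp farther upstream (chr17:27637194-27637959) had 8.96 and 18.8 CPM, a log2 ratio of -0.99 (-1.42 to -0.73), and was open in 6.6% of cells of set 1 and 10.7% of set 2. Counted once per cell the ratios were 0.25, which does not pass the limit, and -0.71. Rpl12 was just inside the limit at 0.32 (0.20 to 0.44) and had 0.14 when counted once per cell.

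At the other end the strongest peaks of Rps29 (-0.26, interval -0.42 to -0.11), Rps3 (-0.26, -0.44 to -0.09), Rpl34 (-0.24, -0.40 to -0.09), Rps9 (-0.23, -0.41 to -0.06) and Rps24 (-0.21, -0.40 to -0.02) had the lowest log2 ratios. None of these passed the limit of 0.32 with all counts as deposited. Rps3, which lines the channel where the message enters the small subunit, had 43.8 CPM in set 1 and 52.7 in set 2, and 25.2% and 30.2% of cells open. Rpl34 was open in 32.2% and 32.9% of cells as deposited but in 16.3% and 23.9% after thinning, where its log2 ratio was -0.73, past the limit, and it was -0.09 with a peak counted at most once in a cell. The ratio of Rps9 was -0.08 without the cells over 3 times the median counts, and that of Rps24 was -0.07 after thinning. Without the cells over 3 times the median counts Rps3 had -0.37, past the limit. With a peak counted at most once in a cell Rps3 had -0.318, just inside it.

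**Figure D3:**
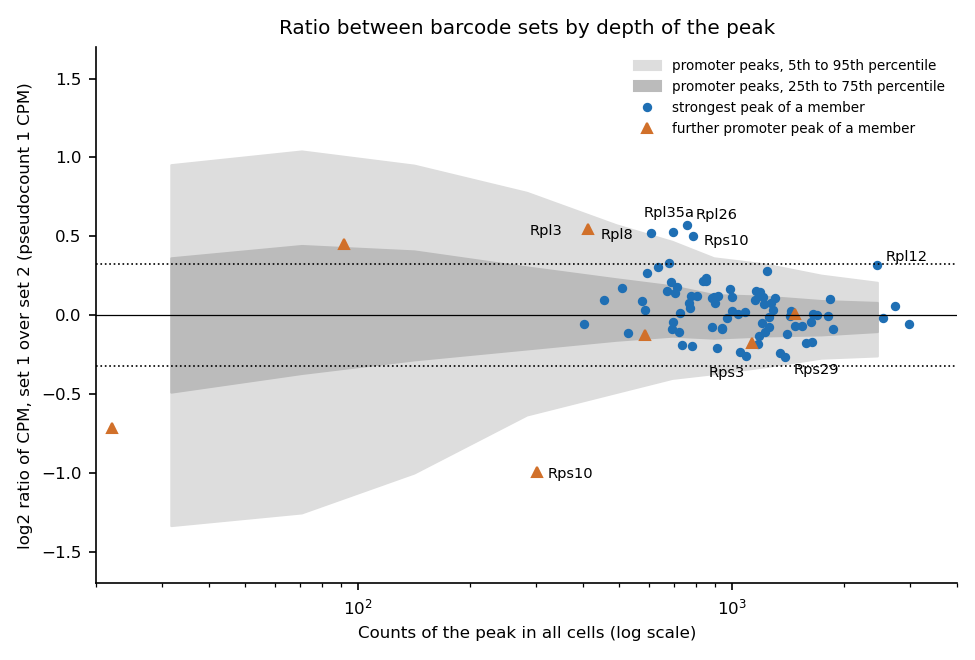
Each point is a promoter peak of a member with at least 20 counts, placed by its counts in all cells (log scale) and its log2 ratio of CPM between barcode sets, with bands for the middle of all promoter peaks of like counts and dotted lines at 0.32 on either side of 0. Of the 88 member peaks 82 lie within the 5th to 95th percentile of promoter peaks of like counts, the strongest peaks of Rpl26, Rpl35a, Rpl8, Rps10 and Rpl12 lie above it and the upstream peak of Rps10 (-0.99) lies below it, where by construction 5% of promoter peaks lie on each side.

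In all, 9 genes had more than 1 promoter peak, of which Rpl3 had 3 and the others 2. A peak near a farther start of Rpl3, shared with Syngr1 (chr15:80090639-80092142), had 21.0 and 14.1 CPM in sets 1 and 2, a log2 ratio of 0.55 (0.28 to 0.88), while the strongest Rpl3 peak had -0.01 (-0.17 to 0.15). The second peak of Rpl36 had 61 and 31 counts, a log2 ratio of 0.45 (-0.08 to 1.24), and that of Rpl27 had 7 and 15 counts, a log2 ratio of -0.72 (-3.05 to -0.13). The second peaks of Rpl18 (-0.18) and Rps14 (-0.12) were closer to 0. A further 3, the smallest peak of Rpl3 and second peaks of Rpl3l and Rpl17, had 10, 5 and 1 counts in all and were not compared, as was the start peak of Rpl3l.

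Levels and ratios were then set beside those of other genes of protein metabolism, taking the strongest peak of each gene. By CPM the cytosolic ribosomal proteins (median 43.7) lay beside translation factors (45.5, 64 peaks) and ribosome biogenesis factors (42.3, 46 peaks), with lower medians for the proteasome (37.5, 39 peaks) and mitochondrial ribosomal proteins (30.3, 77 peaks). Per kb the medians were 21.5, 24.0, 20.5, 23.5 and 22.0 in the same order, against 16.3 over all protein-coding genes. The median log2 ratio was 0.031 for cytosolic ribosomal proteins, 0.064 for translation factors, 0.003 for biogenesis factors, 0.051 for the proteasome and -0.019 for mitochondrial ribosomal proteins, against 0.011 over all 13805 genes' peaks tested. With set 1 higher, 5 of 77, 4 of 64, 1 of 46, 2 of 38 and 3 of 77 peaks passed the limit, where 13.8% of all genes' strongest peaks passed it. With set 2 higher the counts were 0, 1, 0, 1 and 1, where 10.5% passed it. Of the 77 cytosolic peaks 46 had a ratio above 0, where 7172 of 13805 strongest peaks of all genes did. By subunit it was 30 of 46 in the large (median 0.082) and 16 of 31 in the small (median 0.006). The counts were 42 of 64 for translation factors and 23 of 46 for biogenesis factors. They were 23 of 38 for the proteasome and 35 of 77 for mitochondrial ribosomal proteins.

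**Figure D4:**
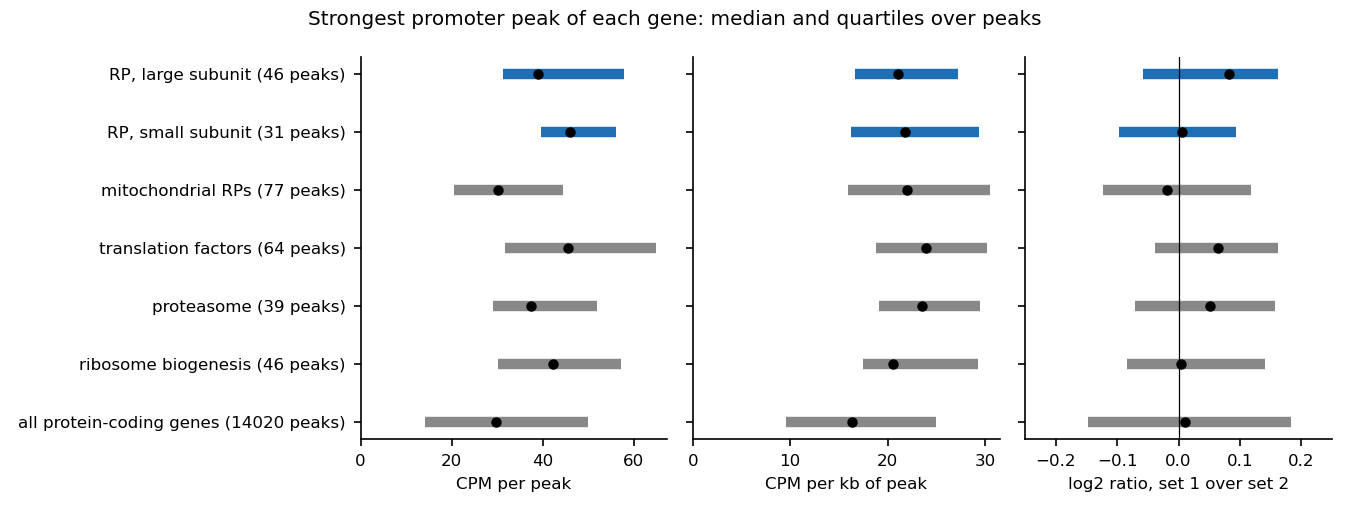
Dots give the median and bars the quartiles over strongest promoter peaks of each gene list, for CPM per peak, CPM per kb of peak and the log2 ratio of CPM between barcode sets. Cytosolic ribosomal proteins (blue, medians of 39.0 and 46.0 CPM by subunit) overlap the lists of translation factors and biogenesis factors on all 3 scales.

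In single cells the ribosomal protein promoters were seen open in part. Of the 77 strongest peaks a cell thinned to 4899 counts had a median of 12 with at least 1 count in either set, with quartiles of 10 and 15 in both sets and ranges of 3 to 27 in set 1 (749 cells) and 3 to 28 in set 2 (560 cells). A promoter without a count in a cell is not shown to be closed, as the share rose with depth. As deposited the median share of cells open was 25.3% in set 1 and 24.4% in set 2, higher in set 1 for 57 of 77 peaks. After thinning the medians were 14.6% and 14.8%, and 47 of 77 peaks were higher in set 1. Strongest peaks of all protein-coding genes had medians of 18.8% in set 1 and 17.8% in set 2 as deposited. After thinning their median was 10.4% in both sets. How many of those peaks were higher in set 1 was not counted.

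Between the lowest and the highest quartile of counts per cell the median share rose from 10.4% to 47.1% for set 1 and, for set 2, from 9.82% to 43.8%. All promoter peaks rose as well, from 5.97% to 29.9% and from 4.91% to 27.5%. Ribosomal protein promoters had a higher median than all promoter peaks, which include further peaks of a gene, in every quartile of both sets. Related lists were not split by quartile. Over all cells as deposited, their strongest peaks had medians of 27.0% and 24.9% in sets 1 and 2 for translation factors. Biogenesis factors had 25.1% and 23.7%, the proteasome 23.6% and 21.1%, and mitochondrial ribosomal proteins 19.2% and 18.4%. Rps19 was open in 75% and 68.1% of the deepest cells of sets 1 and 2. The share of a cell's counts that fell in member peaks had a median of 0.388% in both sets after thinning.

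**Figure D5:**
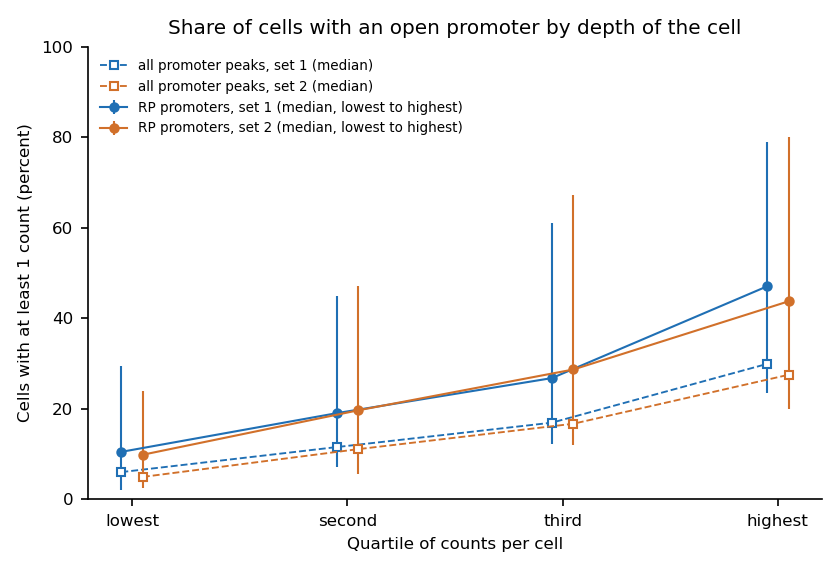
Filled points give the median share of cells with at least 1 count over the 77 strongest ribosomal protein promoter peaks, with lines from the lowest to the highest peak, by quartile of counts per cell in barcode sets 1 (blue) and 2 (orange), and open squares give the median over all promoter peaks. Shares rise with depth in both sets, from 10.4% to 47.1% in set 1, and the filled points lie above the squares in each quartile.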

How the data were processed

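The authors aligned the reads with Cell Ranger ATAC 1.2.0 (version and builds GRCm38 and mm10 per the labels) and deposited whole-number counts of cut sites per peak and cell. No normalization of these deposited counts is stated. A second table, whose rows carry no peak names, was not used here, and the young and old samples were not analysed. Peak positions in the file were taken as 0-based and are given here 1-based. CPM was computed on the total of all peaks in each barcode set. Ratios used a pseudocount of 1 CPM, peaks with at least 20 counts and a limit of 0.32 in log2 for a call. Poisson, conditional binomial and Clopper-Pearson intervals were computed with scipy 1.17.1, and counting was tested on simulated data. Cells are not replicates, so no test was run. No cell was removed from the sums and no doublet caller was run (57 cells over 3 times the median counts were kept). For measures per cell, cells were thinned without replacement to 4899 counts, the 10th percentile, leaving out 69 cells of set 1 and 76 of set 2.

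Members and lists were chosen with earlier results of these data known. Genes were named by rule: the 5 highest and 5 lowest by CPM, share of cells open and ratio, all paralogs, P stalk genes, Rpsa, Rps14, genes of Diamond-Blackfan anemia, X-linked genes, and genes with several or no promoter peaks. Some genes of this rule are not reported here. Other genes were named after their values were seen. Alternatives covered counting once per cell, scaling, window, filters, pseudocount and depth.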

Additional observations from a re-analysis of the deposited data

How the results depend on the processing

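With 1 sample per barcode set, counting error is the only error available. The median log2 ratio of member peaks stayed between 0.018 and 0.042 under every alternative tried. The count of member peaks with set 1 higher moved by over 1.5 times only with the fold, to 0 at 1.5-fold (6.17% of promoter peaks) and 22 at 1.1-fold (31.4%). The count with set 2 higher (2 of 88) was 1 with a peak counted at most once in a cell (9.83% of promoter peaks), with a pseudocount of 5 CPM (8.34%) or with at least 100 counts (10.5%), 0 with a window of 500 bp (11.8%) or within the members' count range (7.4%), 7 in thinned cells (14.7%) and 13 at 1.1-fold (28.3%). The median share of cells open was 14.0% in both sets after thinning and, in set 1, 22.4% without the cells over 3 times the median counts. The summed share of counts was 0.363% and 0.358% in sets 1 and 2 with each peak counted once per cell, and 0.294% and 0.291% for peaks at no other gene, which sums fewer peaks. The median number of open promoters per cell was 19 in both sets without thinning, and 20 and 19.5 at 2 times the depth. The ratio of the members' median to that of all promoter peaks was 1.67 in CPM and 1.35 per kb. In the shorter window of 100 bases before to 50 after the start, the SP/KLF word was held by 46.3% of ribosomal protein promoters against 39.7% of protein-coding promoters. The E-box was held by 2.99% against 4.94% and TATAAA by 7.46% against 6.44%, both differences opposite in direction to those in the longer window. Beyond depth, window and fold, which act by construction, the cause was not tested. No paired analysis was possible because every group here is a single sample (1 per group).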

Other observations

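Levels of cytosolic ribosomal protein promoters were also set beside the words they hold, over the 57 genes with a RefSeq promoter. Genes with the ETS word (24) had a median of 44.5 CPM and those without (33) 41.2 CPM, or 23.8 and 20.5 CPM per kb. Genes with GGGCGG (35) had 51.6 CPM and those without (22) 38.0 CPM, or 23.5 and 21.0 CPM per kb. Genes with TCTCGCGA (11) had 51.7 against 41.9 CPM, or 24.1 against 21.9 CPM per kb, and genes with a pyrimidine word at the start (13) had 51.6 against 41.9 CPM, or 20.5 against 22.8 CPM per kb. The 3 genes with the NRF1 word (Rpl10a, Rpl37a and Rpl5) had a median of 25.6 CPM and 14.3 CPM per kb. None of these differences was tested.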
